A study of Mus musculus with 12 samples.

Results

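De novo lipogenesis, the synthesis of fatty acids from carbohydrate carbon, was followed through 10 genes in the inguinal white adipose tissue (iWAT) of mice kept warm or in the cold. The genes were listed by name for their role in the pathway, with earlier results of these data known. Acly, Acaca, Acacb, Fasn, Scd1, Scd2 and Me1 encode enzymes, Thrsp a small protein whose level follows lipogenesis, and Srebf1 and Mlxipl transcription factors. All 10 were among the 23420 genes of the count table, and all 10 were among the 15306 genes that passed a filter on low counts and were tested. RNA of the inguinal fat pad was sequenced from 12 male C57BL/6 mice aged 10 weeks and fed normal chow, 3 to a group in 4 groups. The study asked what the hypoxia-inducible factor HIF2α does in adipocytes during cold exposure. Thermoneutral (TN) mice were housed at 30 °C for 1 week, and cold-exposed mice at 4 to 6 °C for 3 days. Mice called WT carried loxP-flanked HIF2a alleles and no Cre, and HIF2α AKO mice carried the same floxed alleles together with Adipoq-Cre, which is active in adipocytes of every fat depot. Floxed alleles were thus present in all 4 groups, and Cre was never present without the deletion.

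In lipogenesis, citrate leaves the mitochondrion and is cleaved to acetyl-CoA, which is carboxylated to malonyl-CoA and built into palmitate by fatty acid synthase, with NADPH as the reductant. Insulin and glucose raise the transcription of these enzymes through SREBP1c and ChREBP, the products of Srebf1 and Mlxipl. In brown and beige fat, the pathway is known to be active in the cold at the same time as fatty acid oxidation.

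Each library held between 22368316 and 35204631 counts on genes, and values are given as CPM (read counts scaled to a common library size) after TMM scaling, a correction for library composition. Cold exposure was visible in 8 thermogenic genes (Ucp1 and others), which summed to between 28.4 and 90.6 CPM in the TN libraries and between 3350 and 8582 CPM in the cold libraries. The 10 adipocyte markers summed to between 11720 and 43470 CPM, and none of the libraries lacked them. Skeletal muscle markers summed to 1670 CPM in the first cold HIF2α AKO library and 1920 CPM in the second TN HIF2α AKO library, against at most 111 CPM in the others, and epithelial markers to 281 CPM in the third TN WT library against at most 11.8 CPM. Epas1, which encodes HIF2α, was at 373, 278 and 430.0 CPM in TN WT, at 289, 394 and 360.1 CPM in TN HIF2α AKO, at 576, 562 and 743 CPM in cold WT and at 986, 743 and 749 CPM in cold HIF2α AKO libraries. The targeted gene was thus no lower where the label said HIF2α AKO (edgeR log2 fold change -0.05, adjusted p = 0.9995 at TN, and 0.40, adjusted p = 0.9999 in cold). By RT-qPCR, the study reported lower mRNA of the targeted genes in the iWAT of its knockout mice. Counts over a whole gene do not resolve the floxed part, and genotypes are given here as labelled.

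The promoter sequences of 4 members are shown first, chosen by the RNA levels of their genes. Fasn and Thrsp moved most closely together from mouse to mouse. Acacb and Acaca, which encode the enzymes for the same reaction, differed most in their response to cold. Whether the sequences have a part in these differences was not tested. Each window runs from 250 bases before to 50 bases after a RefSeq transcription start of GRCm38.p6, read 5′ to 3′ on the gene's strand. RefSeq windows were at hand for 8 of the 10 members, 12 windows in all. The windows were searched on both strands for the E-box, the sterol regulatory element, the CCAAT box and the GC box. Capitals mark the letters CCAAT on either strand, the only one of these motifs found in the 4 windows shown. The Fasn window lies at chr11:120824498-120824797 on the minus strand, the Thrsp window at chr7:97417501-97417800 on the minus strand, the Acacb window at chr5:114165268-114165567 on the plus strand and the Acaca window at chr11:84195188-84195487 on the plus strand. The Acacb and Acaca windows lie inside the GENCODE gene spans, so these genes have starts further upstream that are not shown.
Fasn: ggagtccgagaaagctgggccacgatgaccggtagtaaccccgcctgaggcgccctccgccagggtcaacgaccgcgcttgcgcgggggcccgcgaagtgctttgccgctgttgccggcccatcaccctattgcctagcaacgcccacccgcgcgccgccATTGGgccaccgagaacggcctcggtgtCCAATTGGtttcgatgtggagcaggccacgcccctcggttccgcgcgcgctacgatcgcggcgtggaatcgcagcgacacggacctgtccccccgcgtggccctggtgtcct
Thrsp: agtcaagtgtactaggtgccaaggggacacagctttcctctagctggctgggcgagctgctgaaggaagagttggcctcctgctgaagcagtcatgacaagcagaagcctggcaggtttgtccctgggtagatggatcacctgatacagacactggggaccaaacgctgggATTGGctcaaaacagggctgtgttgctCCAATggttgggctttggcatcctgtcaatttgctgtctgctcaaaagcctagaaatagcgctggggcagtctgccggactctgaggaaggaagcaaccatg
Acacb: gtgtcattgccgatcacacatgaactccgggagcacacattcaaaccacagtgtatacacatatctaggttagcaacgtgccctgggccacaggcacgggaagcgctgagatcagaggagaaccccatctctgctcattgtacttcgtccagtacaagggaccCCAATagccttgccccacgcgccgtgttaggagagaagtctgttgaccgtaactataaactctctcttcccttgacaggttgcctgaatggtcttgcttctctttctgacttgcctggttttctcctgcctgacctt
Acaca: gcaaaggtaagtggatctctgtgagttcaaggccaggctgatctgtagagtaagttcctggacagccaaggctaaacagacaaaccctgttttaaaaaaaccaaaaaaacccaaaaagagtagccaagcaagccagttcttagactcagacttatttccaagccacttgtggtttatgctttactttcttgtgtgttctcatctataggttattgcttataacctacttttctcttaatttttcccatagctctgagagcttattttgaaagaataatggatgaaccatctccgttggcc

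In the Fasn window, the CCAAT box was present at -90, -62 and -59 relative to the start, where the last pair overlaps on opposite strands. It was at -79 and -52 in the Thrsp window and at -87 in the Acacb window. Of the 12 windows of members, 8 held it, against 37.4% of 32851 RefSeq windows of the same length. The GC box, with the letters GGGCGG, was in 5 of the 12 windows, against 35.7% of all windows. The E-box, with the letters CACGTG, was in 1, that of Mlxipl at -98, against 7.15% of all windows. The sterol regulatory element, searched only as exact matches to a fixed pattern, was in 0 of them, against 0.234% of all windows. A match this rare is seldom met in 12 windows, so the search cannot tell whether the members lack such an element. Other forms of the element were not searched for. The letters ACGTG, the core to which hypoxia-inducible factors bind and which is part of the E-box, were in 4 of the 12 windows (1 each of Acacb, Mlxipl, Me1 and Acly) and in 19.6% of all windows. These matches describe the letters of the windows alone, since no binding was measured.

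Cold against TN was the comparison in which the members moved. Averaged over the genotypes, Acacb, Srebf1, Thrsp, Mlxipl and Me1 rose in the cold, by between 2.09-fold and 6.13-fold, and Fasn, Scd1, Acly, Scd2 and Acaca had positive log2 fold changes between 0.45 and 0.95 that did not pass the test in edgeR. Thus 5 of 10 members were called higher (edgeR quasi-likelihood test, Benjamini-Hochberg adjusted p under 0.05 over all tested genes), where 24.8% of all tested genes were called higher in the same comparison. DESeq2 on the 12 libraries called 7 members higher, these 5 with Fasn (adjusted p = 0.0347) and Scd1 (adjusted p = 0.0396), against 27% of tested genes. The study set looser thresholds, p under 0.15 before adjustment and an absolute log2 fold change above 0.2, for HIF2α AKO against WT in cold. With these limits applied to cold against TN, 8 members were higher averaged over genotypes, against 28.3% of tested genes. Within WT 6 were higher, against 26.8%, and within HIF2α AKO 6, against 25.7%. The median log2 fold change was 1.01 over the members and -0.05 over all tested genes. In bulk tissue, a change in the RNA per adipocyte cannot be told apart from a change in the share of adipocytes, and 6 of the 10 adipocyte markers were also called higher and 6 of 8 tested lymphocyte markers lower in the cold.

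**Figure D1:**
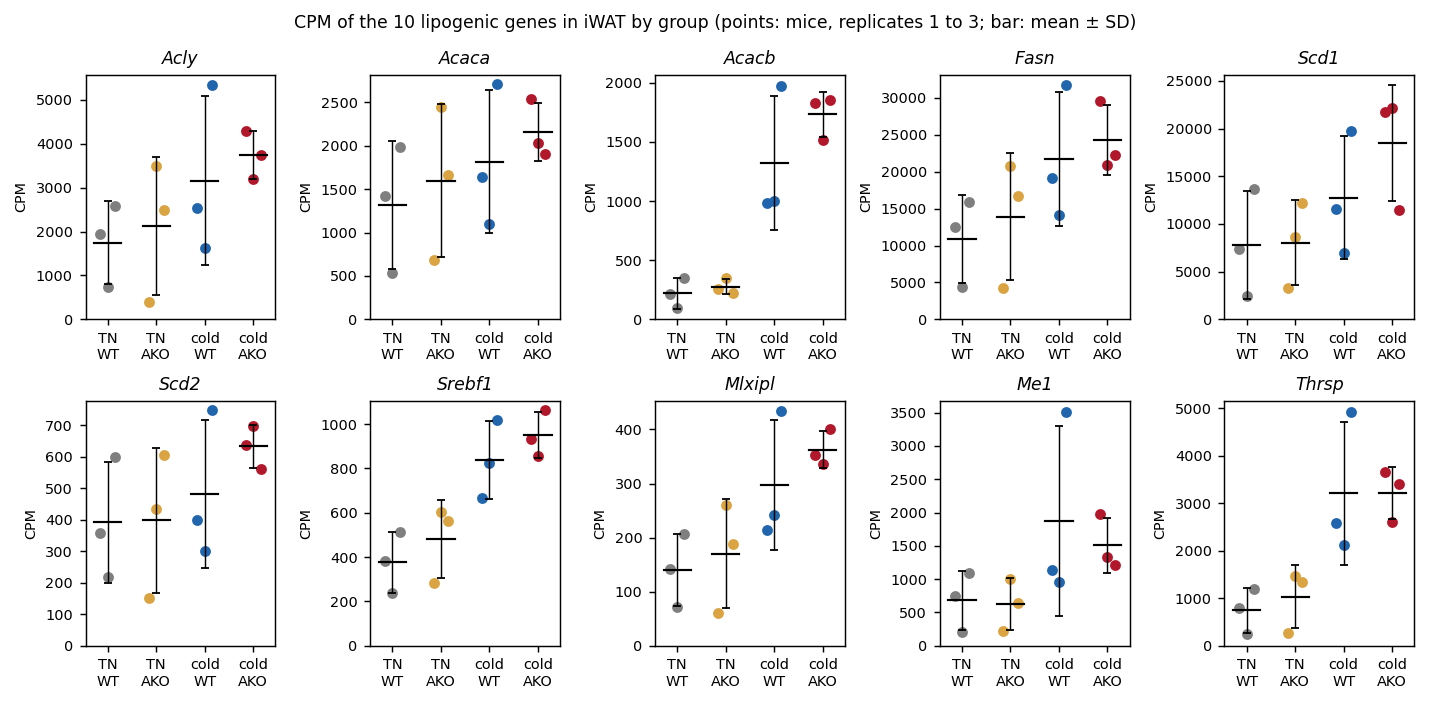
CPM of the 10 genes (linear axes from 0) in the 4 groups, with 1 point per mouse in replicate order, and the group mean ± SD as a bar with whiskers. For Acacb the 6 cold mice sit between 984 and 1974 CPM, all above the 6 TN mice, whereas for Acaca the TN and cold mice overlap.

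Among the enzymes of the carbon chain, Acacb (GRCm38 chr5:114146535-114250761, plus strand) had the largest log2 fold change. Its product, acetyl-CoA carboxylase 2, sits on the mitochondrial outer membrane, where its malonyl-CoA is known to inhibit the uptake of fatty acids for oxidation. Acacb was at 213, 95.6 and 353 CPM in the TN WT libraries, at 257, 349.6 and 222 CPM in TN HIF2α AKO, at 984, 1002 and 1974 CPM in cold WT and at 1831, 1513 and 1854 CPM in cold HIF2α AKO. All 6 cold libraries lay above all 6 TN libraries. The log2 fold change was 2.62 ± 0.31 (SE, adjusted p = 1.1e-04) averaged over genotypes, 2.58 ± 0.44 (adjusted p = 0.00298) within WT and 2.65 ± 0.44 (adjusted p = 0.00199) within HIF2α AKO. Acacb is also expressed in skeletal muscle, and without the 3 libraries that held muscle or epithelial transcripts the log2 fold change was 2.95 (adjusted p = 0.000382).

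Acaca (chr11:84129672-84401651, plus strand) encodes acetyl-CoA carboxylase 1, the cytosolic isozyme whose malonyl-CoA is the substrate of fatty acid synthase. Acaca was at 1428, 531 and 1990.2 CPM in TN WT, at 689.9, 2451 and 1659.6 CPM in TN HIF2α AKO, at 1638, 1099 and 2713 CPM in cold WT and at 2536, 2037 and 1909 CPM in cold HIF2α AKO. The TN and cold libraries overlapped, and 2 of 6 cold libraries lay above all TN libraries. The log2 fold change of 0.45 (95% interval -0.36 to 1.26, adjusted p = 0.327) did not pass the test, and its interval includes both 0 and 1.

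The ratio of Acacb to Acaca counts was also compared within each library, where the scaling of the library cancels. It rests on the same counts as the fold changes above, was chosen with earlier results known, and is not independent evidence of their difference. It was 0.149, 0.180 and 0.177 in TN WT, 0.373, 0.143 and 0.134 in TN HIF2α AKO, 0.601, 0.912 and 0.728 in cold WT and 0.722, 0.743 and 0.971 in cold HIF2α AKO. Each cold library had a higher ratio than each TN library. The mean ratio was 4.28-fold higher in the cold (2.10 on the log2 scale, 2.13 in WT and 2.06 in HIF2α AKO). A two-sided exact permutation test within genotypes gave p = 0.005, the smallest that its 400 arrangements allow, and 0.015 adjusted over the 3 ratios compared.

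**Figure D2:**
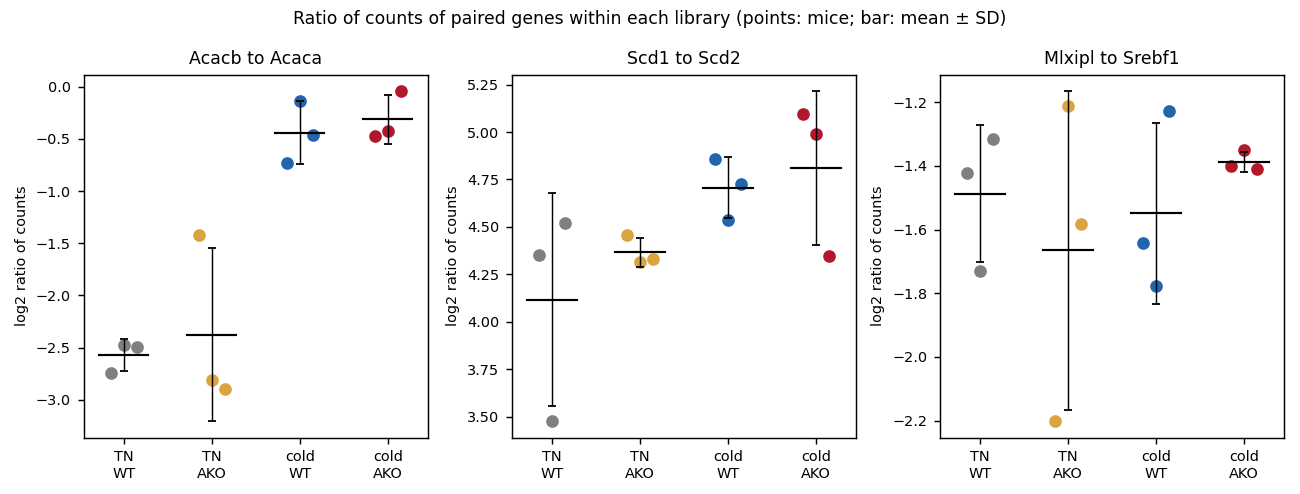
Log2 ratio of counts of 3 pairs of members in each library, with 1 point per mouse and the group mean ± SD; the 3 vertical axes differ and do not start at 0. The Acacb to Acaca ratios of the cold mice, 0.601 to 0.971 before the logarithm, lie above all TN ratios, 0.134 to 0.373, and the Mlxipl to Srebf1 ratios overlap.

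Acly (chr11:100476353-100528000, minus strand) encodes ATP citrate lyase, which makes the cytosolic acetyl-CoA. It was at 1939, 731 and 2577 CPM in TN WT, at 402, 3498 and 2484 CPM in TN HIF2α AKO, at 2531, 1621 and 5330.2 CPM in cold WT and at 4299, 3201 and 3749 CPM in cold HIF2α AKO. Its highest TN HIF2α AKO library lay 8.71-fold above the lowest of that group, and the log2 fold change in the cold was 0.84 (95% interval -0.23 to 1.91, adjusted p = 0.173).

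Fasn (chr11:120805846-120824547, minus strand) encodes fatty acid synthase, which joins malonyl-CoA units into palmitate. It was at 12502, 4364 and 15936 CPM in TN WT, at 4280.2, 20790.3 and 16673 CPM in TN HIF2α AKO, at 19112, 14166 and 31800 CPM in cold WT and at 29645, 20904 and 22328 CPM in cold HIF2α AKO. The 3 cold HIF2α AKO libraries lay above the 3 TN HIF2α AKO libraries, while in WT 1 cold library fell among the TN values. The log2 fold change was 0.90 (95% interval -0.04 to 1.83, adjusted p = 0.101), which did not pass the test. Fasn and Scd1 together took between 0.813% and 4.37% of all counts on genes of a library, and the 10 members between 1.09% and 5.99%.

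Scd1 (chr19:44394455-44407879, minus strand) and Scd2 (chr19:44293674-44306864, plus strand) encode stearoyl-CoA desaturases, which make monounsaturated fatty acids. Scd1 was at 7331, 2416 and 13721 CPM in TN WT, at 3339, 8622 and 12212 CPM in TN HIF2α AKO, at 11603, 6954 and 19766 CPM in cold WT and at 21753, 22202 and 11454 CPM in cold HIF2α AKO. Its temperature groups overlapped, and the log2 fold change of 0.95 (95% interval -0.05 to 1.96, adjusted p = 0.104) did not pass the test. Scd2 ranged from 152 to 607 CPM in the TN libraries (median 396) and from 299.7 to 748 CPM in the cold libraries (median 599), with a log2 fold change of 0.49 (adjusted p = 0.264). The ratio of Scd1 to Scd2 counts, between 11.1 and 34.2 over the libraries, was 1.43-fold higher in the cold (0.52 on the log2 scale, exact permutation p = 0.015, 0.0225 adjusted over 3 ratios). The exact permutation test no longer passed without the first cold WT library (p = 0.07) or without the third cold WT library (p = 0.05). This ratio, too, rests on the same counts as the fold changes, of genes chosen with earlier results known. Reads that fit both genes could be split or lost in counting, which was not tested.

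Me1 (chr9:86581371-86695953, minus strand) encodes the cytosolic malic enzyme, which supplies NADPH. It was at 747, 209 and 1085 CPM in TN WT, at 223, 999 and 646 CPM in TN HIF2α AKO, at 1132, 956 and 3512 CPM in cold WT and at 1981, 1326 and 1211 CPM in cold HIF2α AKO. The third cold WT library was far above the others, and 5 of 6 cold libraries lay above all TN libraries. Me1 rose by 1.36 ± 0.48 on the log2 scale (SE, adjusted p = 0.0370), a call that was lost when any 1 of 7 libraries was left out, among them the third cold WT library.

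Thrsp (chr7:97412938-97417730, minus strand) encodes Spot 14, a small protein whose level follows lipogenesis in liver and fat. It was at 788, 251 and 1193 CPM in TN WT, at 269.997, 1474 and 1344 CPM in TN HIF2α AKO, at 2593, 2114 and 4926 CPM in cold WT and at 3657, 2599 and 3403 CPM in cold HIF2α AKO. All 6 cold libraries lay above all 6 TN libraries. Thrsp rose 3.67-fold averaged over genotypes (log2 1.88 ± 0.46, SE, adjusted p = 0.00730) and by 2.11 on the log2 scale within WT (adjusted p = 0.0422), and within HIF2α AKO the value of 1.65 did not pass the test (adjusted p = 0.0764).

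Of the transcription factors, Srebf1 (chr11:60199089-60222581, minus strand) varied less between mice of a group than Mlxipl. Srebf1 was at 382, 237 and 512 CPM in TN WT, at 281, 605 and 562 CPM in TN HIF2α AKO, at 668, 825 and 1018 CPM in cold WT and at 931, 856 and 1064 CPM in cold HIF2α AKO, without overlap between temperatures. Srebf1 rose 2.09-fold (log2 1.06 ± 0.23, SE, adjusted p = 0.00371), with 1.15 within WT (adjusted p = 0.0282) and 0.98 within HIF2α AKO (adjusted p = 0.0435). Whole-gene counts do not separate the SREBP1a and SREBP1c transcripts, and Rai1 overlaps the gene on the opposite strand.

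Mlxipl (chr5:135089890-135138382, plus strand) encodes ChREBP. It was at 143, 71.5 and 206 CPM in TN WT, at 61.1, 261 and 188 CPM in TN HIF2α AKO, at 214, 241 and 434 CPM in cold WT and at 353, 336 and 400.5 CPM in cold HIF2α AKO. Within each genotype the cold libraries lay above the TN libraries, and across genotypes 2 cold WT libraries fell below the highest TN HIF2α AKO library. Mlxipl rose 2.13-fold averaged over genotypes (log2 1.09 ± 0.35, SE, adjusted p = 0.0244), and the call was lost without the third cold WT library. The ratio of Mlxipl to Srebf1 counts was 1.08-fold higher in the cold, a difference that did not pass the exact permutation test (p = 0.62).

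Within WT, 3 of 10 members were called higher in the cold (Acacb, Srebf1 and Thrsp), against 15.6% of all tested genes, and within HIF2α AKO 2 were (Acacb and Srebf1), also against 15.6%. All 10 log2 fold changes were positive in each genotype. The call of Srebf1 within WT was lost without the third cold WT, the first TN WT or the second TN WT library, and that of Thrsp within WT without any 1 of 8 libraries, these 3 among them. Within HIF2α AKO the call of Srebf1 was also lost without any 1 of 8 libraries, whereas Acacb was called with each of the 12 libraries left out in turn. The 3 cold libraries lay above the 3 TN libraries for 4 members in WT, where 22.7% of tested genes did so, and for 6 members in HIF2α AKO, where 24.9% did. Over both genotypes, all 6 cold libraries lay above all 6 TN libraries for 3 members (Acacb, Srebf1 and Thrsp), against 16% of tested genes.

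**Figure D3:**
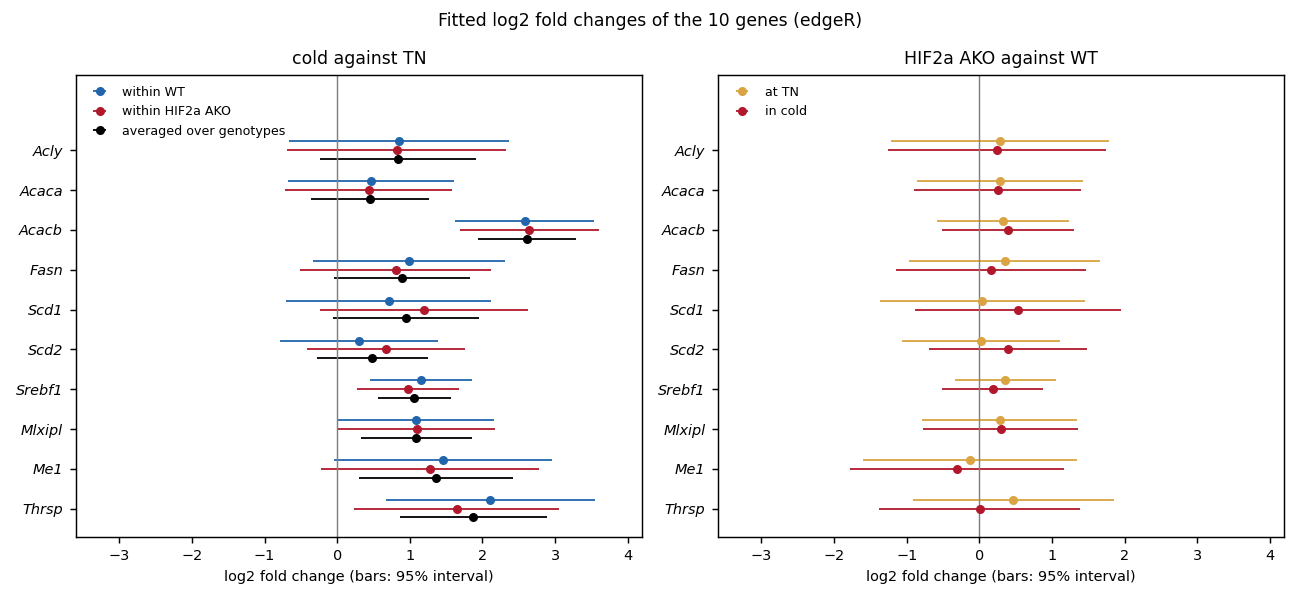
Log2 fold changes with 95% intervals for the 10 members, on the left for cold against TN (within WT, within HIF2α AKO and averaged) and on the right for HIF2α AKO against WT (at TN and in cold). On the left the averaged values run from 0.45 for Acaca to 2.62 for Acacb, and on the right every interval includes 0.

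HIF2α AKO against WT asks whether the loss of HIF2α in adipocytes is seen in the lipogenic genes. None of the 10 members was called at TN, where log2 fold changes ran from -0.13 for Me1 to 0.47 for Thrsp (edgeR, adjusted p = 0.9995 for each), against 0.00653% of all tested genes called. In cold, 0 members were called either, with values from -0.31 for Me1 to 0.53 for Scd1 (adjusted p = 0.9999 for each), again against 0.00653%. At an unadjusted p under 0.05, 0 members passed at either temperature, against 2.91% of tested genes at TN and 2.95% in cold. DESeq2 and limma voom also called 0 members. At the study's looser thresholds, 0 members were higher or lower in cold, where 4.74% of tested genes were higher. The same held at TN, where 3.97% of tested genes were higher.

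For all 10 members the values of the 2 genotypes overlapped at both temperatures, and the intervals were wide. In cold, the 95% interval of the log2 fold change was -0.88 to 1.95 for Scd1, -1.15 to 1.47 for Fasn, -0.51 to 1.30 for Acacb and -0.51 to 0.88 for Srebf1, so that changes of 1 in either direction lay inside the interval for Fasn, as did an increase of 1 for Acacb and Scd1. At TN the interval was -0.96 to 1.66 for Fasn, -0.58 to 1.23 for Acacb and -0.34 to 1.05 for Srebf1. In cold, the mean Fasn level was 24292 ± 4690.0 CPM in HIF2α AKO and 21693 ± 9096 CPM in WT (SD, n = 3), and the mean Acacb level was 1732 ± 191 and 1320.0 ± 567 CPM (SD, n = 3).

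The effect of cold was also not shown to differ between the genotypes. The interaction of genotype and temperature called 0 of 10 members and 0 of 15306 genes in edgeR (at an unadjusted p under 0.05, 2.14% of genes and 0 members), and its log2 values for the members ran from -0.46 for Thrsp to 0.49 for Scd1 (adjusted p = 1). The intervals were -1.21 to 1.34 for Acacb and -1.16 to 0.81 for Srebf1.

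Mice of the same group differed widely in these genes, and the members differed together. The SD of log2 CPM within groups was between 0.448 for Srebf1 and 1.06 for Acly, at the 84th to the 98.9th percentile of tested genes, whose median was 0.221. Across the 12 libraries after subtraction of the group means, Pearson's r of the 45 pairs of members ran from 0.601 for Acacb and Scd2 to 0.991 for Fasn and Thrsp, with a median of 0.915. These values describe 12 libraries that share the scaling of each library. The second TN WT and the first TN HIF2α AKO libraries were below their group mean in all 10 members, by up to 1.92 on the log2 scale for Acly, the first cold WT library was below it in all 10 by at most 0.463, and the third cold WT library was above it in all 10, by up to 1.17 for Me1.

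**Figure D4:**
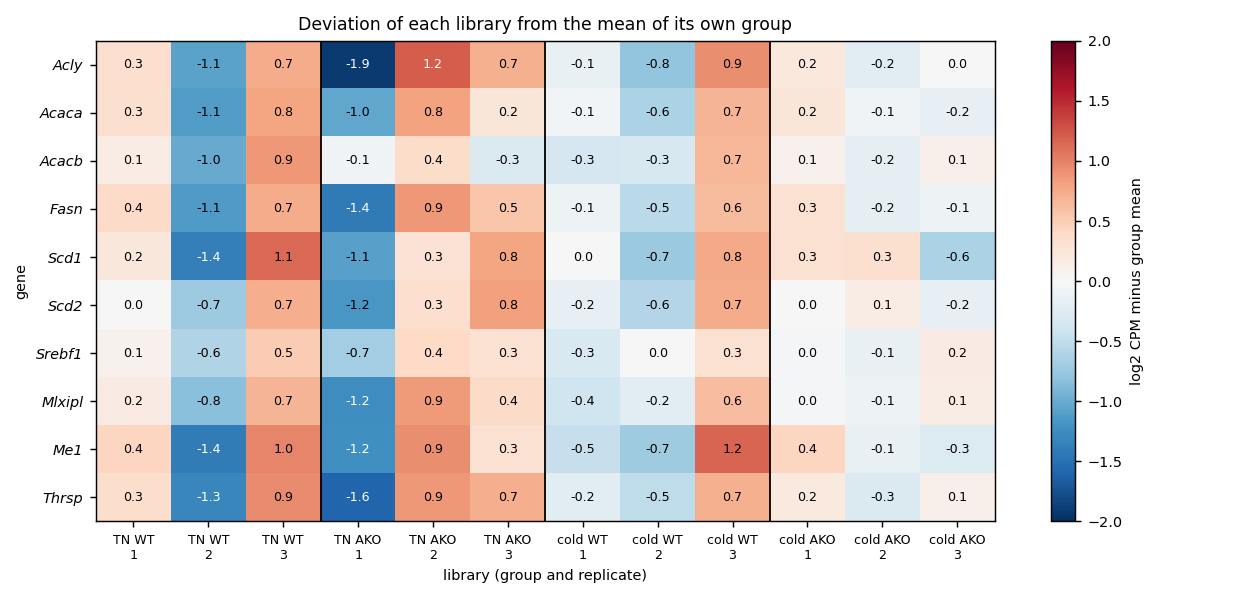
Log2 CPM of each member (rows) in each library (columns) minus the mean of the library's own group, printed in the cells, with red above and blue below the mean. The second TN WT, first TN HIF2α AKO and first cold WT columns are below 0 throughout (the last by at most 0.463), and the columns of the third TN WT, the second TN HIF2α AKO and the third cold WT libraries are above 0 throughout.

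The adipocyte, lymphocyte and, in part, macrophage marker lists moved with the same libraries, but not every list did. Endothelial markers stayed between 828 and 1158 CPM. In cold WT the thermogenic sum was higher in the second library (4864 CPM) than in the third (3627 CPM). The 10 adipocyte markers summed to 11720 CPM in the second TN WT and 18000 CPM in the first TN HIF2α AKO library, the lowest of the 12, and to 43470 CPM in the third cold WT library, the highest. The 8 lymphocyte markers in the table summed to 1675 and 1706 CPM in those TN libraries, the highest of the 12, and to 588 CPM in the third cold WT library, the lowest. Macrophage markers summed to 2939 and 2941 CPM in those TN libraries, beside 2947 CPM in the first TN WT library. In the third cold WT library they summed to 1435 CPM, the lowest of the 12. With the mean log2 level of the adipocyte markers as a covariate, an alternative chosen after seeing the data, 1 of 10 members was called higher in the cold averaged over genotypes, Acacb (log2 1.82, adjusted p = 0.0016), and Acaca was called lower (-0.79, adjusted p = 8.95e-04). In that fit Srebf1 was at 0.46 (adjusted p = 0.131), Thrsp at 0.52 (adjusted p = 0.230), Mlxipl at 0.09 (adjusted p = 0.849) and Me1 at -0.25 (adjusted p = 0.453). This covariate itself moved with temperature, from -0.011 to 0.833 in the cold libraries and from -1.30 to 0.180 in the TN libraries. The fit thus takes out part of the difference between temperatures together with the marker level. Its values cannot be read as effects of cold corrected for the share of adipocytes. The part of these marker levels in the results was not tested further.

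Per kilobase of exon, Scd1, Fasn, Thrsp, Acly and Me1 held the 5 highest mean levels in every group. Scd1 led with 1599 ± 1159 CPM per kb in TN WT and 3776 ± 1243 in cold HIF2α AKO (SD, n = 3), and its range overlapped that of Fasn in each group. Acacb had the lowest level of the members in both TN groups, with 22.9 ± 13.4 CPM per kb in WT and 28.7 ± 6.82 in HIF2α AKO, overlapping Mlxipl, and was in 7th place in cold WT with 137 ± 58.8 and in 6th place in cold HIF2α AKO with 179.9 ± 19.8. With the longest transcript in place of all exons, Acacb was in 8th place in both cold groups, behind Acaca.

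Other genes around the pathway were taken in 3 lists, also chosen with earlier results known, and 17 of their 28 tested genes were called in the comparison averaged over genotypes, 16 of them higher, where 48.8% of all tested genes were called in either direction and 24.8% higher. Of genes that supply carbon and NADPH, 5 of 7 tested were called higher, including Slc2a4 (log2 1.37, adjusted p = 0.00570), the insulin-responsive glucose transporter GLUT4, G6pdx (1.32, adjusted p = 0.00247) and Pgd (1.19, adjusted p = 0.0165), both of the pentose phosphate pathway, and Idh1 (0.98, adjusted p = 0.00464), the cytosolic isocitrate dehydrogenase. The median log2 fold change of this list was 0.98.

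Of the genes for elongation and desaturation, 4 of 6 were called higher, among them Scd3 (log2 2.79, adjusted p = 6.79e-04), a desaturase gene next to Scd1 and Scd2 that was at 0.221 and 0.175 CPM on average in TN WT and TN HIF2α AKO and at 1.07 and 1.81 CPM in cold WT and cold HIF2α AKO. Reads that fit several desaturase genes could be split or lost in counting, so the low Scd3 values are uncertain. The median of this list was 0.49.

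Of the 15 regulators, 7 were called higher, where 24.8% of all tested genes were called higher, and 1 was called lower. Taken in either direction, the share was near the 48.8% of all tested genes. Mlycd (log2 1.57, adjusted p = 5.8e-05), malonyl-CoA decarboxylase, which removes malonyl-CoA, rose beside Acacb. Mid1ip1 (1.67, adjusted p = 0.00526) encodes a partner of acetyl-CoA carboxylase related to Spot 14, Mlx (0.79, adjusted p = 3.07e-04) the dimer partner of ChREBP, and Nr1h3 (0.92, adjusted p = 3.28e-04) the oxysterol receptor LXRα. Prkaa2 (2.83-fold, adjusted p = 0.00129), a catalytic subunit of AMPK, the kinase that inhibits acetyl-CoA carboxylase, and Insig1 (1.71, adjusted p = 0.0116), which holds SREBP in the endoplasmic reticulum, also rose. Usf1, an E-box-binding factor, fell by 0.32 on the log2 scale (adjusted p = 0.0108). The median of the 15 was 0.20.

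**Figure D5:**
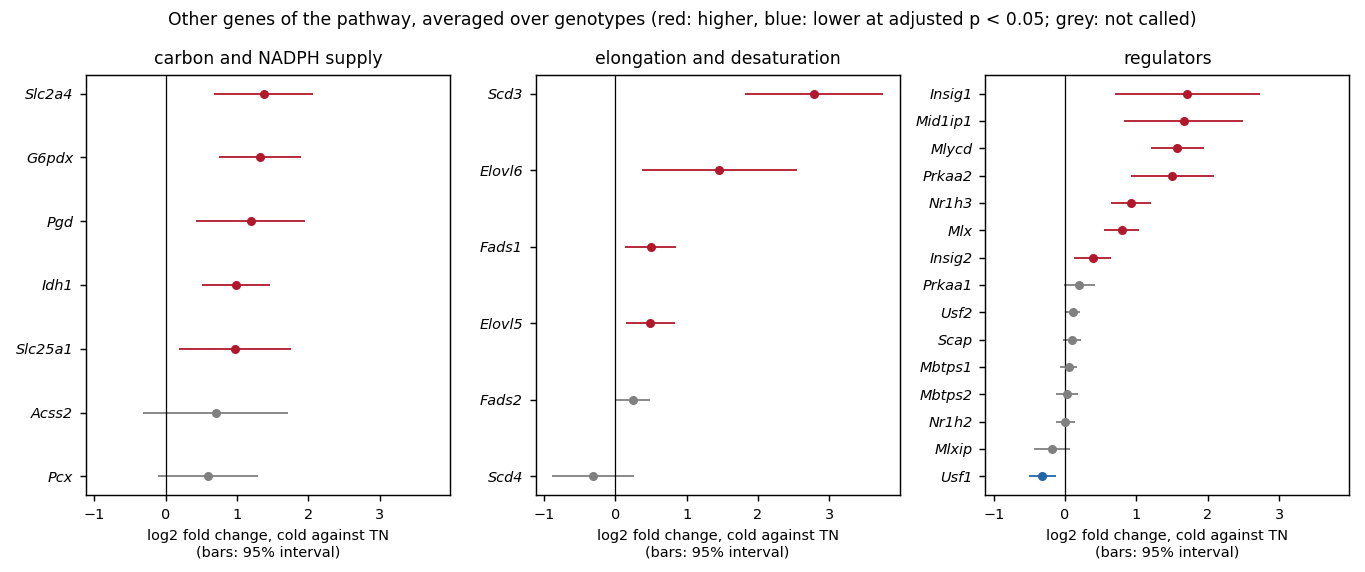
Log2 fold changes with 95% intervals, cold against TN averaged over genotypes, of the tested genes of 3 lists around the pathway; red marks genes called higher, blue genes called lower and grey genes not called at an adjusted p under 0.05. Of the genes shown, 16 are red and 1, Usf1, is blue.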

How the data were processed

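Messenger RNA libraries of iWAT from 12 mice were analysed. Per the labels and the study's methods, the authors trimmed reads with Trim Galore 0.4.4, aligned them with STAR 2.6.1d to GRCm38 and counted them per gene with HTSeq 0.13.5. The annotation, strand setting and read length are not given in the sources used here, so genes that overlap on opposite strands, such as Srebf1 and Rai1, may share counts. The deposited values are whole read counts without normalization, equal in the series table and the 12 sample tables. Tallies of reads that were not assigned to a gene (21.9% to 27.0% of listed reads) were left out.

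Counts were fitted with edgeR 4.0.16 (TMM, filterByExpr with a minimum count of 10 and total of 15, 1 factor of 4 groups, quasi-likelihood test) in R 4.3.3, with limma 3.58.1 and DESeq2 1.42.0 as alternatives. P-values were adjusted over the 15306 tested genes, and the limit was 0.05. Log2 CPM used a prior count of 2. Ratios were tested by an exact permutation of libraries within genotypes. Positions and lengths came from GENCODE annotation of GRCm38 and promoter windows from RefSeq. The edgeR model was tested on simulated counts for cold against TN averaged over genotypes. It found 15 of 65 changes of 0.5 on the log2 scale, 66 of 69 of 1 and 65 of 66 of 2, with 8 false among 154 calls. The simulation gave all genes a coefficient of variation of 0.202, against 0.274 for Srebf1 to 0.558 for Acly. It thus does not show how well changes in the members are found. The members and gene lists were chosen with earlier results of these data known. Named genes of the lists around the pathway were those called, at most 12, in order of p. Nothing in the labels says more on how the mice of a group were sampled, so p-values measure the spread between these libraries. There were 3 libraries a group, and the lowest count of a member in any library was 1568. The spread between libraries of a group was wide, and whether depth limited the comparisons was not tested.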

Additional observations from a re-analysis of the deposited data

How the results depend on the processing

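Acacb was called higher in the cold under every one of the 21 alternatives run for the averaged comparison with the adjusted limit and the 23 within each genotype. Srebf1 and Thrsp were called in 20 of the 21 averaged fits, Mlxipl in 19 and Me1 in 13. The number of members called higher, 5 averaged over genotypes, 3 within WT and 2 within HIF2α AKO, lay between 3 and 6, 1 and 3, and 1 and 3 when libraries were dropped singly, and the lowest averaged value was without the third cold WT library. At the study's thresholds it was 8, 6 and 6. Averaged over genotypes it was 7 with DESeq2. Within WT it was 1 with edgeR and 4 with DESeq2 when only the 6 libraries compared were fitted. Within HIF2α AKO it was 1 with library size alone, 4 with limma voom, 6 with DESeq2 on the 6 libraries compared, and 1 without the 3 libraries with muscle or epithelial transcripts. With the adipocyte marker score as a covariate it was 1 in all 3 comparisons. The cause of these differences was not tested. Both genotype comparisons and the interaction stayed at 0 members in every setting. Over all tested genes, the number called ran from 825 to 8029 within WT (3259 in the fit reported), from 1613 to 8352 within HIF2α AKO (4138) and from 2176 to 9755 averaged (7467). These ranges mix limits, since they include the study's looser thresholds. With libraries left out singly at the adjusted limit, they were 1381 to 3722, 1613 to 4853 and 5867 to 7773. Under library size alone the median log2 fold change of all genes averaged over genotypes was -0.33.

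With the adipocyte score as a covariate, log2 fold changes averaged over genotypes turned negative for Acly (-0.69), Acaca (-0.79), Fasn (-0.39), Scd1 (-0.52), Scd2 (-0.62) and Me1 (-0.25). The score itself moved with temperature, so this fit cannot separate the effect of cold from that of the score. Within WT the same fit gave -1.23 for Acly, -1.09 for Acaca (adjusted p = 0.00357), -0.65 for Fasn, -1.03 for Scd1, -1.10 for Scd2, -0.21 for Mlxipl and -0.58 for Me1. Within HIF2α AKO it gave -0.16 for Acly, -0.50 for Acaca (adjusted p = 0.0214), -0.12 for Fasn, -0.0137 for Scd1 and -0.135 for Scd2. For HIF2α AKO against WT at TN it gave -0.66 for Acly, -0.26 for Acaca, -0.31 for Fasn, -0.42 for Scd1, -0.49 for Scd2, -0.265 for Mlxipl and -0.21 for Thrsp. Scd2 turned to -0.00947 within WT under library size alone, and at TN, between genotypes, to -0.018 under upper quartile scaling and -0.033 under library size alone. In cold, between genotypes, Me1 turned to 0.25 with limma voom, and Fasn to -0.0053 and Thrsp to -0.098 without the 3 libraries with muscle or epithelial transcripts.

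With each library left out in turn, the log2 fold change of Scd2 within WT lay between -0.16 and 0.75. Between genotypes at TN the ranges were -0.65 to 0.38 for Me1, -0.28 to 0.78 for Acly, -0.16 to 0.71 for Acaca, -0.0311 to 0.84 for Acacb, -0.0605 to 0.78 for Fasn, -0.39 to 0.73 for Scd1, -0.42 to 0.47 for Scd2 and -0.17 to 0.68 for Mlxipl. In cold they were -0.0404 to 0.85 for Acly, -0.0371 to 0.55 for Fasn, -0.20 to 0.45 for Thrsp and -0.60 to 0.53 for Me1. None of these genotype values was called. The log2 ratio of Scd1 to Scd2, 0.52 higher in the cold, lay between 0.36 and 0.63, and that of Mlxipl to Srebf1 between -0.0255 and 0.22.

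Over the 18 pairs of libraries with the same replicate number, the correlation of their deviations ran from -0.43 to 0.39, and 5 pairs were above 0.1. Between TN WT and cold WT it was 0.39 for the second and 0.31 for the third libraries. There the members deviated the same way, below the group mean in 10 and 9 of 10 and above it in 10 and 10. The first TN and cold HIF2α AKO libraries had -0.43, with 10 members below the mean and 8 above it. Whether the number stands for anything shared was not tested. With the replicate block the counts were 5 averaged, 3 within WT and 2 within HIF2α AKO, and between genotypes at TN Scd2 turned to -0.000944 and Me1 to 0.031. With the longest transcript as the length, mean levels over the 12 libraries were 181 CPM per kb for Acaca, 154 for Srebf1, 66.9 for Mlxipl and 1465 for Thrsp. What limited these comparisons, depth or the spread between libraries, was not tested.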

Other observations

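Over the 13134 genes outside the members with a mean count of at least 50, those whose log2 CPM followed the mean of the 10 members most closely across the 12 libraries were Tlcd1 (Pearson's r = 0.990), Parm1 (0.990), Elovl6 (0.989), Pmvk (0.989) and Aldh1a7 (0.988). Elovl6 encodes the elongase that lengthens palmitate, and Pmvk phosphomevalonate kinase of the cholesterol pathway. After subtraction of the group means, which leaves the differences between mice of a group, the closest genes were Acss2 (0.998), Slc25a10 (0.992), Tmem179 (0.992), Tlcd1 (0.990) and Aldh1a7 (0.988). Acss2 encodes the cytosolic acetyl-CoA synthetase and Slc25a10 the mitochondrial dicarboxylate carrier. These are the highest of many correlations over 12 libraries that share scaling, and are given as a description without a test. Acss2 followed the members from mouse to mouse, and its log2 fold change in the cold, 0.70, did not pass the test (edgeR, adjusted p = 0.226).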
